A study of Drosophila melanogaster with 8 samples.

Results

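Genes that carry out meiotic recombination and chromosome segregation in Drosophila melanogaster were followed by RNA sequencing of adult ovaries. The list named 31 genes. By gene name 29 were found in both deposited count tables, and ald was found under its current symbol Mps1 (FBgn0000063), which gave 30 of the 14094 genes listed. The gene mus312 was not analysed here. By role the 30 genes comprised 4 of the synaptonemal complex, 5 of sister chromatid cohesion, 6 of break formation, 11 of repair, crossover formation and the checkpoint, and 4 of the spindle. A filter on low counts left 28 of them for testing and removed hdm and vilya.

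In the fly germarium, germline cysts enter meiosis and a protein scaffold, the synaptonemal complex, forms between homologous chromosomes on a cohesin-based axis. Programmed double-strand breaks are made and repaired, some of them as crossovers, and the oocyte alone keeps the meiotic state while its sister cells become nurse cells. The oocyte later builds a spindle without centrosomes, using motors and kinases stored from the maternal genome. Some of these genes act mainly in meiosis, whereas the cohesin subunits and several repair enzymes also serve dividing cells.

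Ovaries came from adults dissected on days 1 to 3 after eclosion, and 4 groups held 2 libraries each. The nosGAL4 control had the genotype nosGAL4;MKRS/TM6 and its counterpart nosGAL4;stwl RNAi/TM6, labelled stwl GKD and taken here as a germline knockdown of stonewall, a gene for a chromatin-associated protein. The bamGAL4 control was listed as bamGAL4 and its counterpart as bamGAL4>stwl RNAi/TM6. Both drivers act in germ cells, nosGAL4 through regulatory sequences of nanos and bamGAL4 through those of bag of marbles, a gene of dividing cysts. With nosGAL4 only the control carried MKRS, so the hairpin and the lack of MKRS cannot be told apart. No balancer was listed for the bamGAL4 control, so the hairpin and TM6 cannot be told apart with that driver. The labels do not say whether the libraries of a group came from separate flies, so p-values measure the spread between these libraries, which may be technical.

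Total counts ran from 7473859 to 12174983 per library, and 3 counts, used as a detection floor, came to 0.238 to 0.405 normalised CPM (reads scaled to library size and between libraries). Across genes, log2 CPM of the libraries of a group correlated at 0.925 in the nosGAL4 stwl GKD group and at 0.97 to 0.984 elsewhere. The targeted mRNA, stwl, was not lower. It stood at 23.1 and 16.9 CPM in nosGAL4 control ovaries and then 61.1 and 27.7 CPM in the stwl GKD libraries, and rose by 1.15 (SE 0.37) on the log2 scale. With bamGAL4 it stood at 18.2 and 20.98 CPM and 23.2 and 29.6 CPM, with no call (0.43 (SE 0.36)). The transcript therefore does not bear out the knockdown label. It cannot decide against the label either, since values of whole ovaries do not give the stwl level per germ cell. Below, "stwl GKD" means the libraries labelled so. The germline gene nos, which maintains stem cells, did follow the labels, at 408 and 452 CPM in nosGAL4 control ovaries against 4.59 and 1.46 CPM, while bamGAL4 controls had 499 and 448 CPM against 1.51 and 2.68 CPM. The cyst differentiation gene bam was at 39.9 and 43.6 against 0 and 0.928 CPM, and at 46.8 and 41.9 against 0.0886 and 0.696 CPM.

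Most of the meiosis genes were lower in stwl GKD ovaries. With nosGAL4, 18 of the 28 genes tested fell and 2, ord and cona, rose, where 25.7% of all 8957 genes tested fell and 33.5% rose, or 59.2% in all (edgeR quasi-likelihood test, Benjamini-Hochberg adjusted p under 0.05, 2 libraries per group). With bamGAL4, 18 fell and 1, ord, rose, against 33.1% and 35.0% of all genes, or 68.1% in all. With both drivers 15 fell and 1 rose, against 21.3% and 27.9% of all genes, none was called in opposite directions, as 0.670% of all genes were, and 5 were called with neither. The median log2 fold change of the 28 genes was −1.33 with nosGAL4 and −1.58 with bamGAL4, beside 0.11 and −0.06 over all genes. With the 3 nosGAL4 genes that have a group at 0 set to their bound, the median stayed at −1.33. It could not move, because each bound lies on the same side of it as the fitted value. The libraries of control and stwl GKD did not overlap for 20 genes that were lower and 4 that were higher with nosGAL4 (37.7% and 42.1% of all genes), and for 20 and 4 with bamGAL4 (43.8% and 43.4%). Among genes that fell, c(2)M, spn-D, mei-P22, nenya and narya passed the filter on low counts only through controls, where they were high. The genes ord and cona passed it only through stwl GKD libraries. In bulk tissue, fewer cells of a type and less RNA per cell cannot be told apart.

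Scaling changed part of this. With ribosomal protein scaling, which moved the median of all genes to 0.81 with bamGAL4, 10 of the meiosis genes fell and 4 rose with that driver, where 13.2% and 46.2% of all genes did. The median of all genes was −0.41 with nosGAL4 under that scaling, −0.28 and −0.27 with library totals, and −0.42 and −0.57 with a transcript length correction. Over all genes, 2303 fell and 3004 rose with nosGAL4 in the main test, but 3269 and 2192 with ribosomal protein scaling, 3246 and 2449 with library totals and 3680 and 2261 with the length correction. With bamGAL4 the split of 2961 and 3138 became 1183 and 4140 with ribosomal protein scaling and 4028 and 2352 with the length correction.

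**Figure D1:**
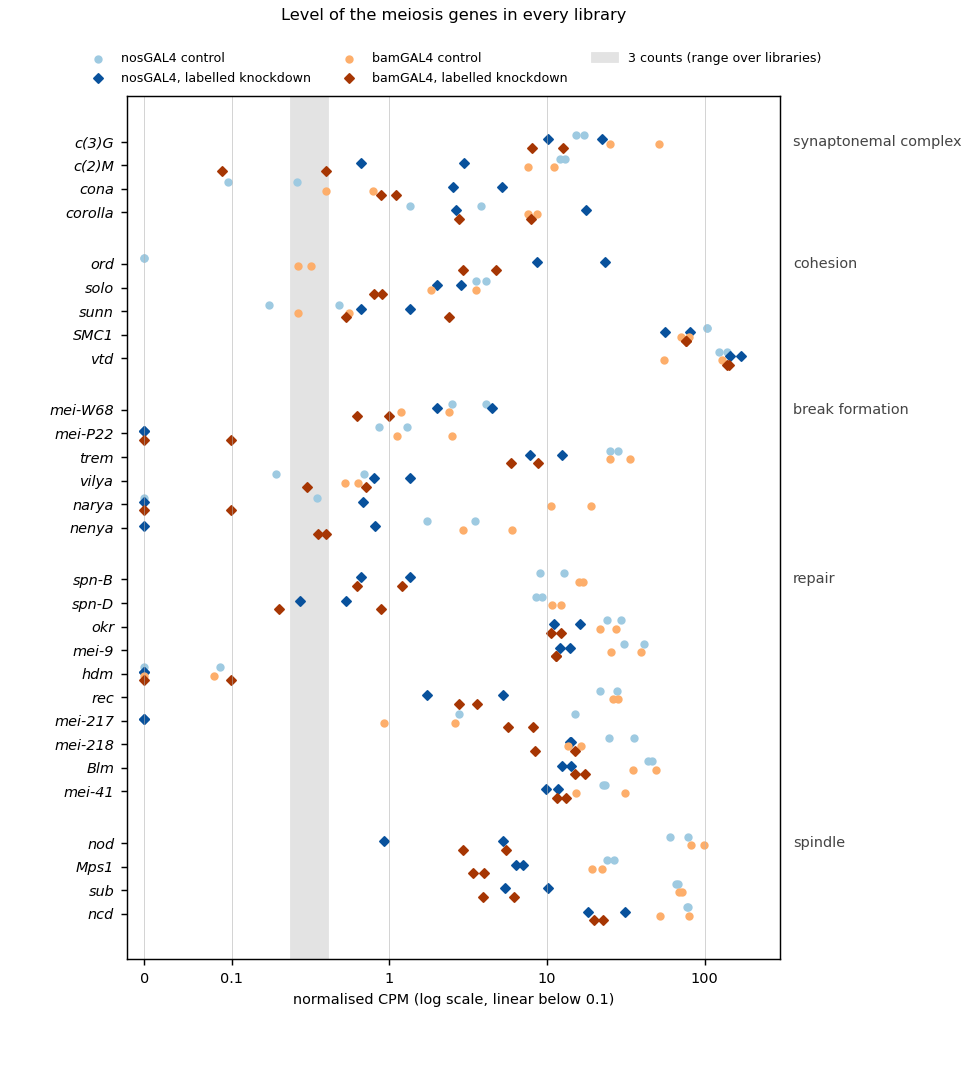
Normalised CPM (log axis, linear below 0.1) of 29 of the 30 meiosis genes in every library, ordered by role, with controls as circles and stwl GKD libraries as diamonds. The grey band spans the value of 3 counts, 0.238 to 0.405 CPM. The diamonds of the 4 spindle genes lie left of all their circles, and those of ord lie to the right.

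Markers of other cell types moved in the same libraries. Among all genes tested, 25.7% fell and 33.5% rose with nosGAL4, and 33.1% fell and 35.0% rose with bamGAL4. The sum of 20 germline markers was 5576 and 6046 CPM in nosGAL4 control ovaries and then 1588 and 1294 CPM in stwl GKD, and 4728 and 4498 against 856 and 1030.2 CPM with bamGAL4. Of these markers 13 fell and 3 rose with nosGAL4 (median log2 −2.17), and 13 fell and 2 rose with bamGAL4 (median −3.69). The 30 meiosis genes summed to 752 and 789.8 against 457 and 364 CPM with nosGAL4, and to 742 and 748 against 351 and 379 CPM with bamGAL4. The cohesin genes vtd and SMC1, called lower only for SMC1 with nosGAL4, held a large part of these sums. They were at 139 and 103 CPM in nosGAL4 control replicate 1 and at 142 and 75.7 CPM in bamGAL4 stwl GKD replicate 1. The change of the sum is therefore not the size of the fall of the other genes. In each library at most 1 of the 20 germline markers was at 0. The oocyte mRNA osk stood at 863 and 778 against 104 and 26.5 CPM and at 557 and 634 against 4.87 and 10.5 CPM.

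All 15 muscle sheath markers rose with either driver, and none was at 0 in any library. Their sum went from 803 and 881 to 36906 and 42757 CPM with nosGAL4 and from 763 and 814 to 51710 and 47211 CPM with bamGAL4, and the muscle actin Act57B was at 11014 and 11609 CPM in nosGAL4 stwl GKD. All 13 haemocyte and fat body markers rose too, from sums of 595 and 632 to 10884 and 11931 CPM and from 385 and 562 to 24746 and 25507 CPM. Of these, 3 and 2 were at 0 in the nosGAL4 control libraries, and 3 and 1 in those of bamGAL4. Niche, terminal filament and escort cell markers rose in 9 of 11 cases with either driver, from 156 and 155 to 1019 and 1192 CPM and from 126 and 98.4 to 1045 and 1165 CPM. Follicle cell markers, none at 0, did not share a direction: 2 of 13 fell and 4 rose with nosGAL4 and 5 fell and 5 rose with bamGAL4, with sums of 9564 and 9959 against 11249 and 5371 CPM and 11710 and 17527 against 16379 and 15843 CPM. The shares of follicle cell markers that rose were near the 33.5% and 35.0% of all genes.

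Neuronal markers rose in 6 of 8 cases with nosGAL4 and 5 of 8 with bamGAL4, from sums of 15.2 and 10.8 to 198 and 269 CPM and from 7.86 and 6.41 to 277 and 336 CPM. Gut, oviduct and spermatheca markers rose in 5 of 8 and 3 of 8 cases, from 5.28 and 6.75 to 139.9 and 56.5 CPM and from 73.9 and 172 to 221 and 239 CPM, and 7 of the 10 listed were at 0 in each nosGAL4 control. Their share that rose with bamGAL4 was near the 35.0% of all genes. Markers near 0 in the controls passed the filter only where they were high. The part of any cell type in the changes of the meiosis genes was not tested.

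**Figure D2:**
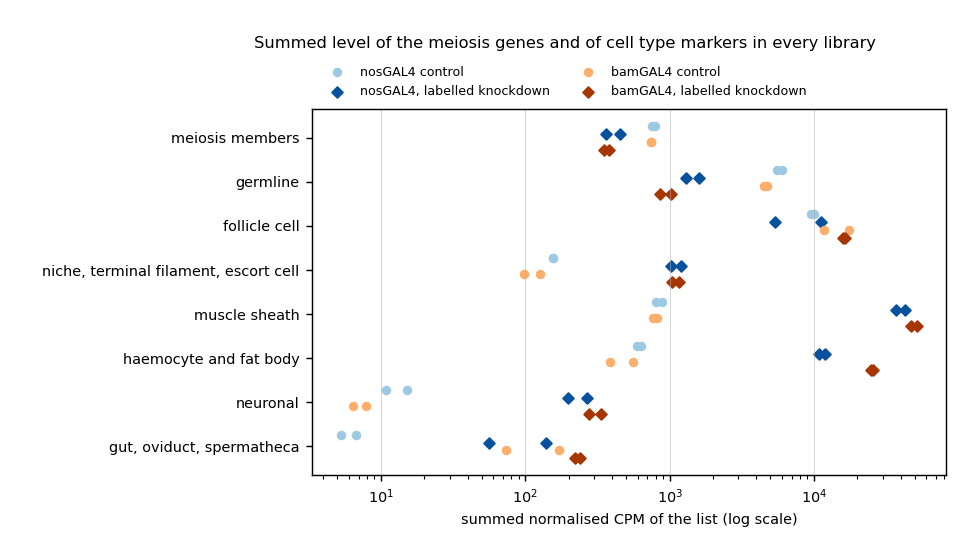
Summed normalised CPM (log axis) of the 30 meiosis genes and of marker lists of 7 cell types, 1 point per library. Germline markers and meiosis genes are lower in stwl GKD, at 856 to 1588 and 351 to 457 CPM, while muscle sheath markers reach 36906 to 51710 CPM. The cohesin genes vtd and SMC1 hold a large part of the meiosis sums.

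The spindle genes gave the most uniform picture of the 5 roles: all 4 fell with either driver, where 25.7% of all genes fell with nosGAL4 and 33.1% with bamGAL4. The largest change among the spindle genes was that of nod (X:11580772-11585750), a kinesin-like motor on chromosome arms that holds chromosomes without crossovers on the female meiotic spindle. It stood at 60.5 and 78.8 CPM in nosGAL4 control ovaries and then 5.27 and 0.928 CPM in stwl GKD, while bamGAL4 controls had 81.3 and 98.6 CPM against 2.92 and 5.47 CPM. The stwl GKD libraries were below every control, by 22.5-fold with nosGAL4 (log2 −4.49, SE 0.62, adjusted p = 0.0003497) and 21.5-fold with bamGAL4 (log2 −4.43, SE 0.598, adjusted p = 0.000236). Left out in turn, stwl GKD replicates 1 and 2 gave −6.22 and −3.74 with nosGAL4.

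The kinesin-6 gene sub (2R:17745500-17748078), which organises the acentrosomal spindle, was at 65.4 and 67.5 CPM in nosGAL4 control ovaries and then 10.1 and 5.44 CPM in stwl GKD. The bamGAL4 values were 72.05 and 68.6 against 3.899 and 6.16 CPM. The 4 controls lay close together and far above the 4 stwl GKD libraries, with falls of 8.53-fold (log2 −3.09, SE 0.34, adjusted p = 3.07e-05) and 13.99-fold (log2 −3.81, SE 0.35, adjusted p = 6.97e-06). Its exons share 506 bases with Ir54a on the other strand.

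Mps1, the kinase gene listed as ald that guards chromosome attachment, was at 26.6 and 23.98 against 6.35 and 7.03 CPM with nosGAL4 and 19.1 and 22.3 against 3.37 and 3.98 CPM with bamGAL4 (log2 −1.92, SE 0.31, adjusted p = 0.000411, then log2 −2.496, SE 0.31, adjusted p = 6.27e-05). The minus-end directed kinesin gene ncd, which focuses spindle poles, was at 78.4 and 77.1 against 31.2 and 18.04 CPM and at 52.3 and 79.9 against 22.6 and 19.9 CPM (log2 −1.66, SE 0.31, adjusted p = 0.00123, then log2 −1.64, SE 0.31, adjusted p = 0.00104). Neither gene had overlapping groups. With ribosomal protein scaling ncd was no longer called with bamGAL4 (−0.78, adjusted p = 0.0576).

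Of the repair genes 10 of 10 tested fell with nosGAL4 and 8 of 10 with bamGAL4, where 25.7% and 33.1% of all genes fell. These counts take mei-217 and mei-218, which share exons, as 2 genes. That pair was not called with bamGAL4. Among the repair genes that fell with both drivers, spn-B and spn-D, which act in meiotic strand exchange, had the largest changes. The spn-D mRNA (3R:27165716-27167122) was at 8.54 and 9.26 CPM in nosGAL4 control ovaries and then 0.2703 and 0.531 CPM in stwl GKD, where it rested on 2.00 and 4.00 counts. With bamGAL4 it was at 12.3 and 10.7 against 0.886 and 0.199 CPM. All stwl GKD values were under 1 CPM, so spn-D passed the filter on low counts only through the controls, where it was high. The tests gave log2 −4.43, SE 0.73, adjusted p = 0.000515 and log2 −4.35, SE 0.68, adjusted p = 0.000284. The latter value was between −5.77 and −3.68 without stwl GKD replicate 1 or 2.

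The spn-B mRNA (3R:14328051-14329608) was at 9.02 and 12.7 against 1.35 and 0.663 CPM with nosGAL4. With bamGAL4 it was at 16.9 and 15.99 against 0.6204 and 1.19 CPM. Again no groups overlapped, with log2 −3.42, SE 0.55, adjusted p = 0.000422 for nosGAL4 (−4.02 without stwl GKD replicate 1) and log2 −4.17, SE 0.54, adjusted p = 8.10e-05 for bamGAL4.

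The gene okr, which encodes a Rad54-like motor protein of strand exchange, changed by less. It was at 24.1 and 29.4 against 16.1 and 11.01 CPM with nosGAL4 (log2 −0.98, SE 0.299, adjusted p = 0.0165) and 21.6 and 27.3 against 10.6 and 12.2 CPM with bamGAL4 (log2 −1.100, SE 0.298, adjusted p = 0.00795). The groups stayed apart with either driver. The nosGAL4 call was lost without control replicate 2 (−0.84) or stwl GKD replicate 2 (−0.75). The bamGAL4 call was lost with ribosomal protein scaling (−0.22) and without stwl GKD replicate 1 (−1.005).

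Among genes that decide how breaks are resolved, rec (3R:15823019-15832632) encodes an MCM-like protein of a complex that in flies promotes crossovers against the Blm helicase. It was at 21.6 and 27.8 CPM in nosGAL4 control ovaries and then 5.27 and 1.72 CPM in stwl GKD, while bamGAL4 controls had 26.1 and 28.03 CPM against 2.75 and 3.58 CPM. Both falls separated the groups (log2 −2.82, SE 0.46, adjusted p = 0.000506, and log2 −3.09, SE 0.46, adjusted p = 0.000201), and the nosGAL4 value was −3.84 without stwl GKD replicate 1. The length correction gave −3.52 and −4.17. The rec exons share 1100 of their 4131 bases with alpha-Man-IIb on the other strand.

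The helicase gene Blm, whose product limits crossovers, was at 45.9 and 43.8 against 14.2 and 12.5 CPM with nosGAL4 (log2 −1.75, SE 0.27, adjusted p = 0.000301) and 34.8 and 49.01 against 14.98 and 17.4 CPM with bamGAL4 (log2 −1.38, SE 0.26, adjusted p = 0.000975). The XPF-type endonuclease gene mei-9, which makes most meiotic crossovers in flies, was at 30.8 and 40.9 against 13.9 and 12.1 CPM (log2 −1.46, SE 0.298, adjusted p = 0.00192) and 25.3 and 39.3 against 11.3 and 11.3 CPM (log2 −1.51, SE 0.297, adjusted p = 0.00122). Neither gene had overlapping groups. With ribosomal protein scaling the bamGAL4 values of Blm (−0.499, adjusted p = 0.218) and mei-9 (−0.65, adjusted p = 0.117) were not called. The length correction gave −2.601 and −2.68 for Blm and −2.07 and −2.37 for mei-9. The mei-9 exons share 382 bases with lncRNA:CR44957 on the same strand.

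The ATR-type checkpoint kinase gene mei-41 was at 23.1 and 22.5 against 9.86 and 11.8 CPM with nosGAL4 (log2 −1.07, SE 0.36, adjusted p = 0.0249) and 15.2 and 31.2 against 11.6 and 13.1 CPM with bamGAL4 (log2 −0.91, SE 0.35, adjusted p = 0.0396). The groups did not overlap. The size of both values turned on the scale: the length correction gave −2.596 (adjusted p = 0.000105) and −3.100 (adjusted p = 3.58e-05), and ribosomal protein scaling gave −0.048 (adjusted p = 0.931) with bamGAL4. The nosGAL4 call was lost without control replicate 1 (−1.07), control replicate 2 (−1.099) or stwl GKD replicate 1 (−0.96). The bamGAL4 call was lost under 10 of 17 alternatives, with −0.303 (adjusted p = 0.437) without bamGAL4 control replicate 2, −0.83 and −1.01 without stwl GKD replicate 1 or 2, and −0.93 and −0.92 without nosGAL4 control replicate 1 or 2. The gene hdm, which encodes a partner of the mei-9 protein, had 0 or 1 count in every library, so no change was detectable at this depth.

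The remaining MCM-like genes, mei-217 (X:17136578-17142990) and mei-218 (X:17135985-17142990), lie on the same strand and share exons. All 5005 exonic bases of mei-217 fall inside exons of mei-218, and both had fractional counts in 6 libraries, so the split of reads between them is uncertain. As deposited, mei-217 was at 15.1 and 2.77 CPM in nosGAL4 control ovaries and then at 0 in both stwl GKD libraries (adjusted p = 0.00135). On counts summed over the group, mei-217 was at least 42.8-fold lower if 3 counts are allowed in stwl GKD. That bound rests mostly on control replicate 1, with 157 counts against 31.5 in control replicate 2. The fitted nosGAL4 value was −7.76 without control replicate 1 and −10.17 without control replicate 2. With bamGAL4 it was at 0.917 and 2.61 against 8.15 and 5.66 CPM, not called (log2 1.92, SE 0.87, adjusted p = 0.0756). That value was called with ribosomal protein scaling (2.75), DESeq2 (2.198), the 4 bamGAL4 libraries alone (1.91) and without nosGAL4 control replicate 2 (1.91).

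The deposited mei-218 values were 24.7 and 35.5 against 13.9 and 14.2 CPM with nosGAL4 (log2 −1.100, SE 0.34, adjusted p = 0.0183), not called once control replicate 2 was left out (−0.82, adjusted p = 0.139). With bamGAL4 they were 13.6 and 16.4 against 8.42 and 15.01 CPM, overlapping and not called (log2 −0.36, SE 0.34, adjusted p = 0.362), and ribosomal protein scaling gave 0.54. The length correction gave values of similar size for both drivers, −2.29 (adjusted p = 0.000208) with nosGAL4 and −2.17 (adjusted p = 0.000254) with bamGAL4. With the counts of mei-217 and mei-218 summed, an alternative chosen after seeing the data, the locus was at 39.8 and 38.2 CPM in nosGAL4 control ovaries and then 13.9 and 14.2 CPM in stwl GKD. With bamGAL4 the sum was at 14.5 and 19.00 and 16.6 and 20.7 CPM. The nosGAL4 groups were apart and the bamGAL4 groups overlapped, with log2 fold changes of −1.47 (SE 0.27, adjusted p = 0.000916) and 0.15 (SE 0.26, adjusted p = 0.631).

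**Figure D3:**
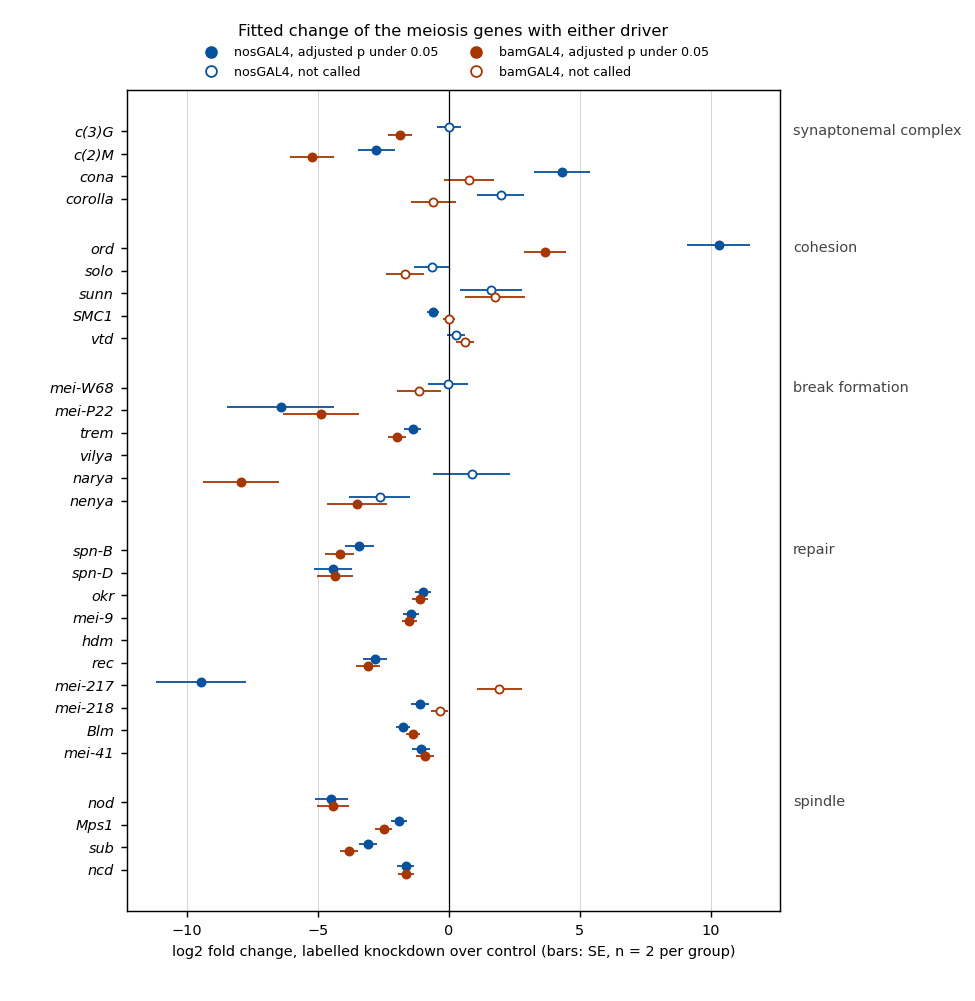
Fitted log2 fold change of the tested meiosis genes, all but 1 of them shown, stwl GKD over control, with its SE (2 libraries per group), for nosGAL4 (blue) and bamGAL4 (brown). Filled points passed the test and open points did not. The fitted nosGAL4 values of ord, mei-217 and mei-P22, and so their SE, rest on a group at 0 counts and depend on the prior count.

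The synaptonemal complex genes did not move together. The lateral element gene c(2)M (2L:16303264-16305940), a kleisin-like protein that promotes synapsis, was the 1 gene of the 4 that fell with both drivers. It was at 11.99 and 12.99 CPM in nosGAL4 control ovaries and then 2.97 and 0.663 CPM in stwl GKD, while bamGAL4 controls had 11.1 and 7.52 CPM against 0.0886 and 0.398 CPM. The groups were apart with either driver (log2 −2.77, SE 0.695, adjusted p = 0.00627, and log2 −5.22, SE 0.85, adjusted p = 0.000364). Without stwl GKD replicate 1 or 2 the values were −4.22 and −2.08 with nosGAL4, and −4.51 and −6.53 with bamGAL4. However, c(2)M passed the filter on low counts only through the controls, where it was high.

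The transverse filament gene c(3)G (3R:15789473-15792579), which bridges the homologs, was at 17.1 and 15.2 CPM in nosGAL4 control ovaries and then 22.4 and 10.1 CPM in stwl GKD. The bamGAL4 values were 51.3 and 24.9 against 8.06 and 12.5 CPM. The groups overlapped with nosGAL4 (log2 0.0086, SE 0.45, adjusted p = 0.994) and were apart with bamGAL4 (log2 −1.89, SE 0.46, adjusted p = 0.00472). The nosGAL4 value was −0.41 with library totals, −0.62 with ribosomal protein scaling, −0.46 with the length correction and −0.69 without stwl GKD replicate 1, none of them called. With bamGAL4 it was no longer called once control replicate 1 was left out (−1.29, adjusted p = 0.0549), nor with ribosomal protein scaling (−0.97, adjusted p = 0.0686).

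The central region gene cona (3R:18385828-18386887) was at 0.0959 and 0.2598 CPM in nosGAL4 control ovaries, on 1.00 and 3.00 counts, and then at 5.13 and 2.52 CPM in stwl GKD. The groups did not overlap, and the rise (log2 4.31, SE 1.06, adjusted p = 0.00554) was called under all 16 alternatives that gave a value. The rise was 5.13 without control replicate 2 and 3.71 without stwl GKD replicate 1. However, cona passed the filter on low counts only through the nosGAL4 stwl GKD libraries, where it was high. With bamGAL4 cona was at 0.786 and 0.396 against 0.886 and 1.09 CPM, not called (log2 0.77, SE 0.95, adjusted p = 0.486).

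The other central region gene, corolla, was at 1.34 and 3.81 against 17.7 and 2.65 CPM with nosGAL4 and 8.65 and 7.600 against 2.75 and 7.95 CPM with bamGAL4. Its groups overlapped with either driver and no change was called (log2 1.97, SE 0.89, adjusted p = 0.0843, and log2 −0.604, SE 0.85, adjusted p = 0.546). The nosGAL4 value was called with DESeq2 (2.03, adjusted p = 0.0453) and without stwl GKD replicate 2 (2.75, adjusted p = 0.00421), and the bamGAL4 value was 0.34 with ribosomal protein scaling.

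Of the cohesion genes, ord (2R:23271257-23275536) rose with both drivers. It encodes a protein of the meiotic chromosome axis that is needed for cohesion and normal recombination. It had no count in either nosGAL4 control and 172 and 65.0 counts in stwl GKD, or 23.2 and 8.62 CPM (adjusted p = 8.40e-05). On counts summed over the group, ord was at least 116-fold higher if 3 counts are allowed in the controls. With bamGAL4 it was at 0.262 and 0.317 CPM in the controls, on 2.00 and 4.00 counts, and at 2.92 and 4.77 CPM in stwl GKD (log2 3.65, SE 0.803, adjusted p = 0.00303). The groups did not overlap, and the call held under all 17 alternatives with either driver. However, ord passed the filter on low counts only through the stwl GKD libraries, where it was high. The fitted nosGAL4 value of 10.29, which depends on the prior count, was 9.45 without stwl GKD replicate 1, and the bamGAL4 value was 2.69 with the length correction. No exon of ord overlaps another annotated gene.

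The general cohesin subunits had calls that changed with the library and the scale. SMC1, a core subunit of the ring, was at 103 and 103 CPM in nosGAL4 control ovaries and then 80.3 and 55.8 CPM in stwl GKD (log2 −0.598, SE 0.23, adjusted p = 0.0476). That call was lost under 10 of 17 alternatives, among them nosGAL4 control replicate 1 (−0.62) or 2 (−0.604), stwl GKD replicate 2 (−0.38) and bamGAL4 stwl GKD replicate 1 (−0.61) or 2 (−0.61) left out, and the value was −1.27 (adjusted p = 0.000789) with the length correction. With bamGAL4 the groups overlapped, at 70.5 and 79.96 against 75.7 and 75.5 CPM (log2 0.0068, SE 0.23, adjusted p = 0.981), but the value was −0.99 (adjusted p = 0.00275) with the length correction and 0.88 (adjusted p = 0.0243) with ribosomal protein scaling.

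The Rad21-type kleisin gene vtd was at 139 and 123 against 146 and 171 CPM with nosGAL4 (log2 0.27, SE 0.34, adjusted p = 0.502) and 129 and 55.5 against 142 and 139 CPM with bamGAL4 (log2 0.61, SE 0.34, adjusted p = 0.1298). The stwl GKD libraries were higher than the controls with either driver, without a call. The nosGAL4 value turned to −0.14, −0.25 and −0.17 when library totals, ribosomal proteins or transcript length set the scale. The bamGAL4 value was called without control replicate 1 (1.33, adjusted p = 0.00186) and with ribosomal protein scaling (1.51, adjusted p = 0.00672).

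The meiotic cohesion genes solo and sunn were low throughout. The solo exons share 563 bases with the germline helicase gene vas on the same strand, and its counts were fractional in all 8 libraries. It was at 3.55 and 4.07 against 2.84 and 1.99 CPM with nosGAL4 and 1.83 and 3.56 against 0.798 and 0.894 CPM with bamGAL4. The groups did not overlap, but no change was called (log2 −0.66, SE 0.696, adjusted p = 0.435, and log2 −1.67, SE 0.73, adjusted p = 0.0646). The bamGAL4 value was called with library totals (−1.899), the 4 bamGAL4 libraries alone (−1.68), the length correction (−2.41) and without nosGAL4 stwl GKD replicate 1 (−1.69) or 2 (−1.69). The log2 fold change of vas was −2.17 (SE 0.59, adjusted p = 0.0153) and −4.66 (SE 0.66, adjusted p = 0.000564). The sunn mRNA had between 2 and 24 counts in a library and was not called with either driver (log2 1.602, SE 1.198, adjusted p = 0.269, and log2 1.75, SE 1.14, adjusted p = 0.194).

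The break formation genes included scarce mRNAs. The zinc finger gene trem, needed to start programmed breaks, was the most abundant of them, at 25.1 and 28.1 against 12.4 and 7.83 CPM with nosGAL4 (log2 −1.39, SE 0.34, adjusted p = 0.00511) and 25.02 and 33.5 against 5.94 and 8.75 CPM with bamGAL4 (log2 −1.997, SE 0.34, adjusted p = 0.000491). Its groups did not overlap, and both calls held under all 17 alternatives. The gene mei-P22, whose product works with the break-making enzyme, was at 0.863 and 1.299 CPM in nosGAL4 control ovaries and then at 0 in both stwl GKD libraries (adjusted p = 0.0222). On counts summed over the group, it was at least 5.44-fold lower if 3 counts are allowed in stwl GKD. With bamGAL4 it held 19.0 and 14.0 counts in the controls against 0 and 1.00, a ratio of 34.8 after scaling with a 95% counting interval of 5.82 to 1414 (adjusted p = 0.0144). However, mei-P22 passed the filter on low counts only through the controls, where it was high.

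Both mei-P22 calls were lost when some single libraries were left out. The nosGAL4 call was lost without nosGAL4 control replicate 2 (adjusted p = 0.0762) or bamGAL4 stwl GKD replicate 1 (0.05202) or 2 (0.0535). The bamGAL4 call was lost without bamGAL4 control replicate 1 (−4.23) or stwl GKD replicate 1 (−3.999) or 2 (−7.14). The Spo11 gene mei-W68, which cuts the DNA, was at 2.49 and 4.07 against 4.46 and 1.99 CPM and 1.18 and 2.38 against 0.6204 and 0.994 CPM, not called with either driver (log2 −0.028, SE 0.77, adjusted p = 0.983, and log2 −1.15, SE 0.83, adjusted p = 0.235). Its exons share 806 bases with par-1 on the same strand, and the nosGAL4 value turned to 0.36 without control replicate 2 and 0.42 without stwl GKD replicate 2.

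The RING-domain genes that link breaks to crossover sites gave different results. The vilya mRNA had 10 counts or fewer in every library and was not tested. The filter on low counts passed nenya only through the controls, where it was high. The nenya mRNA was at 1.73 and 3.46 against 0.811 and 0 CPM with nosGAL4, not called (log2 −2.65, SE 1.16, adjusted p = 0.0716), while bamGAL4 controls had 6.03 and 2.93 CPM against 0.354 and 0.398 CPM (log2 −3.52, SE 1.14, adjusted p = 0.01902). The nosGAL4 value was called with library totals (−3.04), ribosomal protein scaling (−3.296), the length correction (−3.11) and without stwl GKD replicate 1 (−7.74). The bamGAL4 call was lost with ribosomal protein scaling (−2.65) and without control replicate 1 (−2.93) or stwl GKD replicate 1 (−3.45) or 2 (−3.61).

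The narya mRNA (X:19475063-19476055) was set apart by the bamGAL4 controls, with 145 and 134 counts there, or 18.99 and 10.6 CPM. It held 0 and 1.00 counts in bamGAL4 stwl GKD, 5.00 and 0 in nosGAL4 stwl GKD and 0 and 4.00 in its controls. No library outside the bamGAL4 controls reached 1 CPM, so narya passed the filter on low counts only through those controls. The bamGAL4 ratio after scaling was 294 with a 95% counting interval of 52.3 to 11649 (adjusted p = 0.000778), and the fitted value was −7.04 and −10.18 without stwl GKD replicate 1 or 2. The nosGAL4 value of 0.86 (adjusted p = 0.635) turned to −3.97 without stwl GKD replicate 1 and −0.060 without control replicate 1.

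**Figure D4:**
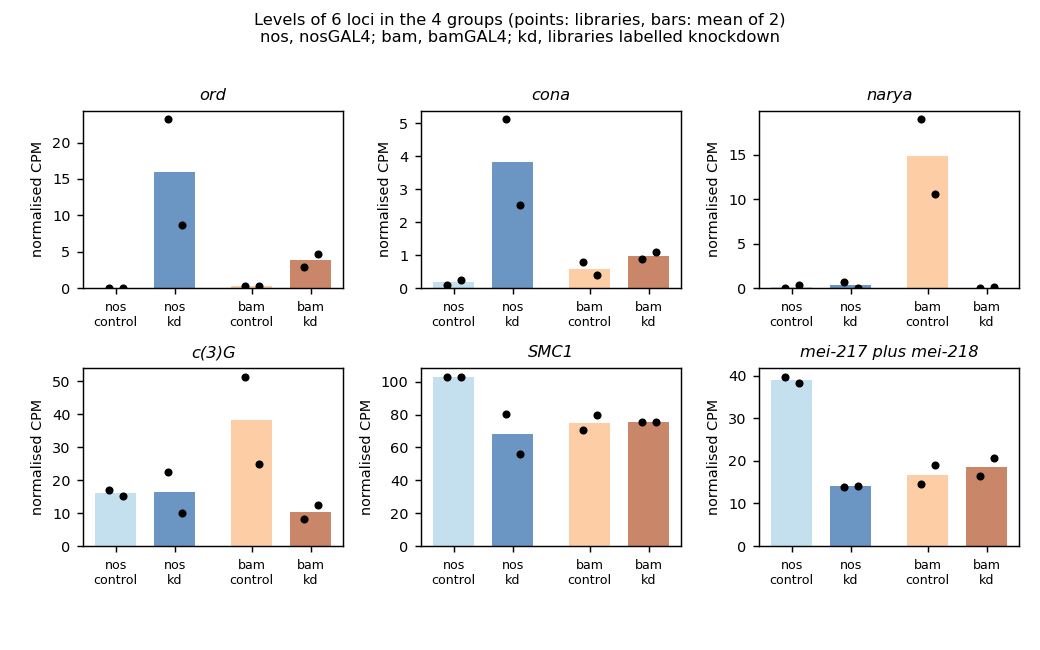
Normalised CPM of 6 loci in the 4 groups, with bars as the mean of 2 libraries and points as the libraries. The ord and cona bars are highest in nosGAL4 stwl GKD, narya reaches 10.6 and 19.0 CPM in the bamGAL4 controls, and the summed mei-217 and mei-218 locus is highest in the nosGAL4 controls, at 38.2 and 39.8 CPM.

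Whether the drivers differed was tested as the nosGAL4 effect minus the bamGAL4 effect. Of the 28 genes 1 was called, mei-217 (log2 −11.37, SE 1.97, adjusted p = 0.0284), where 2.68% of all genes were, 1.16% with a negative and 1.52% with a positive difference. That call was lost without nosGAL4 control replicate 1 (−9.68), bamGAL4 control replicate 1 (−10.897) or 2 (−12.28), or bamGAL4 stwl GKD replicate 1 (−11.06) or 2 (−11.62), and the value was −12.08 without nosGAL4 control replicate 2. For the summed locus the difference was −1.62 (SE 0.37, adjusted p = 0.0504). At an unadjusted p under 0.05, 6 of the 28 genes passed, a share below the 24.7% of all genes that did. The others were c(3)G (1.89, adjusted p = 0.116), c(2)M (2.45, adjusted p = 0.198), cona (3.54, adjusted p = 0.164), ord (6.64, adjusted p = 0.0671) and narya (8.81, adjusted p = 0.0581), all positive. The mei-217 and ord values rest on a group at 0 counts and depend on the prior count.

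Several of these passed the threshold in other fits, which also called more of all genes. Without nosGAL4 stwl GKD replicate 2, 6 of 29 genes were called, where 16.9% of all genes were, among them c(3)G (2.35), c(2)M (3.15), ord (7.23) and narya (9.78). DESeq2 called 3 of the 28 genes and 11.9% of all genes, with ord at 5.98 (adjusted p = 0.0194) and narya at 9.07 (adjusted p = 0.00229). The ord and narya differences were also called with no filter on low counts (6.64 and 8.800) and with ribosomal protein scaling (5.55 and 7.39). Across the alternatives the differences fell as low as 0.34 for c(3)G, 0.907 for c(2)M, 2.10 for cona and 3.99 for narya. The cona difference was not called under any alternative.

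The control ovaries of the drivers were compared as bamGAL4 minus nosGAL4. Of the 28 genes 1 was called, narya (log2 6.27, SE 1.24, adjusted p = 0.0263), where 6.80% of all genes were, 3.11% lower and 3.68% higher in the bamGAL4 controls. The narya call was lost without nosGAL4 control replicate 1 (5.37) or 2 (10.15), bamGAL4 control replicate 1 (5.798) or 2 (6.63), bamGAL4 stwl GKD replicate 2 (6.27), and with the length correction (5.77). The summed mei-217 and mei-218 locus was lower in the bamGAL4 controls (−1.21 (SE 0.26, adjusted p = 0.0293)). At an unadjusted p under 0.05, 5 of the 28 genes passed, where 25.2% of all genes did, the others being c(3)G (1.23, adjusted p = 0.123), ord (adjusted p = 0.124), mei-217 (−2.29, adjusted p = 0.145) and mei-218 (−1.003, adjusted p = 0.102). With 0 counts in the nosGAL4 controls and 6 in the bamGAL4 controls, ord was at least 2.17-fold higher in the latter if 3 counts are allowed in the former. Without nosGAL4 stwl GKD replicate 1 or 2, c(3)G (1.23 and 1.22) and mei-218 (−1.004 and −1.01) were called too. The driver and the balancers cannot be told apart in this comparison.

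Levels per length in the controls spanned a wide range. Per kilobase of exon, the mean over the 4 controls was 44.1 CPM for vtd, 32.6 for nod, 27.8 for sub, 26.4 for ncd and 22.7 for SMC1, and the libraries of each neighbouring pair overlapped. The repair genes spn-D, spn-B, mei-9, Blm and okr lay close together at 9.94, 9.87, 9.44, 9.03 and 8.90 CPM per kilobase. The low end held vilya at 0.617, cona at 0.449, sunn at 0.122, ord at 0.037 and hdm at 0.0284 CPM per kilobase.

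Libraries of a group differed for some of the genes. In nosGAL4 stwl GKD 21 of the 28 genes were higher in replicate 1, where 49.8% of all genes were, and ord, cona and corolla were among them. The germline gene vas was at 139 and 46.4 CPM in those libraries. In bamGAL4 stwl GKD 6 of the 28 meiosis genes were higher in replicate 1, where 50.8% of all genes were. There vas was at 7.89 and 21.8 CPM and the germline sum at 856 and 1030.2 CPM. The part of germline content in this spread was not tested.

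Genes that work beside the listed ones were counted in 4 lists, beside the 25.7% of all genes that fell and 33.5% that rose with nosGAL4 and the 33.1% and 35.0% with bamGAL4. Of 8 genes of general cohesin and its regulators 6 fell and 0 rose with nosGAL4, and 3 fell and 1 rose with bamGAL4, where the share that fell was near that of all genes (medians −1.13 and −0.47 on the log2 scale). The cohesin release factor wapl changed by −1.69 (SE 0.29) and −1.75 (SE 0.29), and the acetyltransferase san by −1.26 (SE 0.23) and −1.52 (SE 0.24). With nosGAL4 the cohesin-associated gene pds5 changed by −1.16 (SE 0.22). With bamGAL4 the cohesion protector dmt changed by −1.47 (SE 0.26), whereas the cohesin loader Nipped-B rose by 2.02 (SE 0.36).

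Of 21 general break repair and checkpoint genes 15 fell and 1 rose with nosGAL4 (median −1.23), and 18 fell and 1 rose with bamGAL4 (median −1.94). The Chk2 kinase gene lok changed by −3.46 (SE 0.32) and −3.68 (SE 0.33), and the helicase subunit gene Mcm5 by −3.14 (SE 0.32) and −3.76 (SE 0.33). The nuclease gene mus81 changed by −4.44 (SE 0.48) with nosGAL4, and mre11, of a break-end nuclease complex, by −2.19 (SE 0.25) with bamGAL4. The ATM kinase gene tefu was the 1 that rose, by 1.12 (SE 0.302) and 1.97 (SE 0.31).

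Of 29 other spindle, centromere and cohesion protection genes 24 fell and 1 rose with nosGAL4 (median −1.87), and 23 fell and 2 rose with bamGAL4 (median −2.71). The Polo inhibitor gene mtrm, which holds the oocyte in prophase, changed by −5.71 (SE 0.29) and −9.82 (SE 0.38), and the kinase gene polo by −2.68 (SE 0.23) and −2.71 (SE 0.23). The centromere assembly gene cal1 changed by −2.704 (SE 0.22) with nosGAL4 and the maternal gamma-tubulin gene gammaTub37C by −7.76 (SE 0.55) with bamGAL4. The spindle gene tacc rose by 1.26 (SE 0.22) and 1.38 (SE 0.22), and its partner msps by 1.06 (SE 0.26) with bamGAL4.

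Of 20 genes of meiotic entry, arrest and completion 14 fell and 0 rose with nosGAL4 (median −3.41), and 16 fell and 1 rose with bamGAL4 (median −4.10). The cytoplasmic poly(A) polymerase gene wisp changed by −4.55 (SE 0.31) and −5.999 (SE 0.34), and plu, which acts in the first embryonic cycles, by −8.29 (SE 0.61) and −9.61 (SE 0.66). The cyclin gene CycB3 changed by −3.85 (SE 0.25) with nosGAL4, and cort, a female meiotic activator of the anaphase-promoting complex, by −5.73 (SE 0.38) with bamGAL4. The 1 that rose was fbl, by 0.57 (SE 0.23).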

How the data were processed

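RNA of adult ovaries was sequenced in 8 libraries, 2 in each of 4 groups taken from the sample titles. The authors deposited unscaled estimated counts for each gene. Per the submitters' processing notes the tools were Salmon 1.2.1, STAR 2.7.5b, Trim Galore 0.6.6 and FastQC 0.11.8, in no stated role, and the build was dm6. Which annotation and strand setting were used is not given in the sources used here. Reads of overlapping genes may thus be shared: exons of 5 of the meiosis genes overlap another gene on the same strand and those of 15 on the other. Positions were taken from the BDGP6.54 annotation and equal dm6 coordinates.

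Counts were rounded, filtered with filterByExpr (minimum count 10, minimum total 15; 8957 genes left) and fitted with edgeR 4.0.16 (limma 3.58.1, R 4.3.3) as 1 robust quasi-likelihood model of 4 groups with TMM factors and 4 residual degrees of freedom. Benjamini-Hochberg adjustment of p-values ran over all genes, with a threshold of 0.05, and fold changes use a prior count of 0.125. Each SE was derived from the test, as the size of the log2 fold change divided by the square root of its F statistic. Alternatives were RLE factors, library totals, ribosomal protein scaling, DESeq2 1.42.0, no filter, at least 5 CPM in 2 libraries, each driver's own 4 libraries, a replicate block, a transcript length correction (loess span 0.5) and each library left out. Where leaving a library out left 1 in a group, it was assumed to vary like the other groups. Intervals and floors cover counting error only. Intervals and fold bounds use counts summed over the libraries of a group, so they leave out the spread between those libraries.

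The meiosis genes and all lists were chosen with earlier results of these data known. Named were all meiosis genes but 1 of the repair genes, which enters the counts but is not reported here, up to 3 genes per direction and driver of each pathway list by smallest adjusted p, and stwl, nos and bam; osk, Act57B and vas were chosen from the marker lists after their values were seen.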

Additional observations from a re-analysis of the deposited data

Results flagged for a closer look

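A difference between the drivers in the effect of the stwl GKD label was called for mei-217, at −11.37 on the log2 scale (nosGAL4 effect minus bamGAL4 effect, edgeR adjusted p = 0.0284, 2 libraries per group). It was the 1 call among the 28 genes tested, a share near the 2.68% of all genes called. The size depends on the prior count, since 1 group was at 0. The call was lost without nosGAL4 control replicate 1 (adjusted p = 0.0552), bamGAL4 control replicate 1 (0.0827) or 2 (0.0534), or bamGAL4 stwl GKD replicate 1 (0.108) or 2 (0.0782). Both nosGAL4 stwl GKD libraries were at 0, against 15.1 and 2.77 CPM in the nosGAL4 controls. Both bamGAL4 stwl GKD libraries lay above their controls, but that rise was not called (edgeR adjusted p = 0.0756). All exons of mei-217 lie inside those of mei-218, and for the 2 genes summed the difference was −1.62 (SE 0.37, adjusted p = 0.0504).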

How the results depend on the processing

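Of the calls on single meiosis genes, 14 of 20 with nosGAL4 and 10 of 19 with bamGAL4 held under every alternative that gave a value. The number of genes higher with nosGAL4 was 1 with at least 5 CPM in 2 libraries, where 22 genes were tested. With bamGAL4 10 were lower and 4 higher with ribosomal protein scaling, and 2 were higher with DESeq2 or the driver's own 4 libraries, and 1 to 2 with a library left out. For the difference between drivers the number called was 10 of 28 with ribosomal protein scaling (38.6% of all genes), 3 of 28 with DESeq2 (11.9%), 3 of 30 with no filter (4.63%), and 0 to 6 with a library left out (0.313% to 16.9%). For the controls it was 10 with ribosomal protein scaling (34.1%), 0 with the length correction (0.931%) and 0 to 3 with a library left out (0.288% to 15.5%). Beside the counts of 0, the controls had 5 genes at an unadjusted p under 0.05 in the main test, and 25.2% of all genes. The cause of these shifts was not tested.

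Replicate numbers did not pair the libraries (correlation of deviations −0.04 with nosGAL4 and −0.0032 with bamGAL4). With the replicate block the number called between controls was 0 (1.52% of all genes), c(3)G with nosGAL4 was −0.091, and SMC1 and mei-P22 with nosGAL4 (−0.62 and −6.42), mei-41 with bamGAL4 (−0.83) and narya between controls (6.24) were not called.

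Reversals touched values that were not called in the main test. With nosGAL4, c(3)G was −0.41 (library totals), −0.62 (ribosomal protein scaling), −0.019 (no filter), −0.070 (own libraries), −0.46 (length correction) and −0.69 to 0.46 with a library left out. The gene vtd was −0.14, −0.25 and −0.17 (library totals, ribosomal protein scaling, length correction). The gene mei-W68 was 0.034 with RLE, 0.034 with DESeq2 and −0.73 to 0.42 with a library left out, where narya was −3.97 to 4.73. With bamGAL4, ribosomal protein scaling gave 0.34 for corolla and 0.54 for mei-218. SMC1 was −0.21 (library totals), −0.018 (no filter) and −0.090 to 0.096 with a library left out. The scale gave SMC1 calls in both directions with bamGAL4. It was lower with the length correction (−0.99, edgeR adjusted p = 0.00275) and higher with ribosomal protein scaling (0.88, edgeR adjusted p = 0.0243). Depth limits hdm, vilya, sunn and mei-P22, which had few counts.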
